A study of Homo sapiens with 6 samples.

Results

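The RUNX and Ikaros families are 2 sets of transcription factors that direct blood cell fate. The genes described are RUNX1, RUNX2, RUNX3, their partner CBFB, and IKZF1 to IKZF5, taken as the rows of the gene count table that carry these symbols. All 9 symbols were found, each once, among 34495 rows. Their messages were measured by messenger RNA sequencing in K562, an established human erythroleukemia line, with 3 wild-type libraries and 3 libraries of an ARID4B knockout. The cells of both genotypes were cultured in the same RPMI medium with serum, and no other allele or agent is named. The study's title places ARID4B, a subunit of the SIN3-HDAC corepressor, beside KIT-Src signalling and the differentiation of blood progenitors. The labels do not say how the knockout was made, or whether a replicate is a culture or a clone of its own, so the p-values measure the spread between these libraries, which may be technical.

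RUNX proteins bind DNA through the Runt domain, and the CBFB protein, which does not touch DNA itself, strengthens that binding as a heterodimer. RUNX1 is needed for blood stem cells and for megakaryocytes, RUNX2 for bone, and RUNX3 for T cell lineages and sensory neurons. Ikaros proteins bind DNA through one group of zinc fingers and pair with each other through a second group at the end of the protein. They bring chromatin complexes with histone deacetylases to their sites, and in erythroid cells Ikaros (IKZF1) has been tied to the switch from fetal to adult globin.

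The libraries held 21701404 to 30346244 estimated counts. ARID4B itself stood at 38.4, 41.0 and 40.9 CPM (counts relative to the TMM-adjusted size of each library) in wild-type replicates 1 to 3 and at 8.52, 7.22 and 7.68 CPM in knockout replicates 1 to 3. Its fitted log2 difference was -2.36 (SE 0.10, adjusted p = 0.000132 by the edgeR quasi-likelihood test), and its chromosomal neighbours had medians of -0.24, -0.53 and -0.20 on the log2 scale. The common biological coefficient of variation was 32.3% among knockout and 4.81% among wild-type libraries. Of 10 genes that define K562, all passed the expression filter, 1 rose (ALAS2) and 2 fell (TFRC and KLF1). Among all genes tested 18.3% were called higher and 15.4% lower, so these counts were not set apart. TFRC and KLF1 lost their calls when any 1 wild-type library was dropped. TFRC also lost its call with library totals or upper quartile factors in place of TMM, and without knockout replicate 2. GATA1, the master erythroid factor, was at 263 CPM in the wild-type libraries and 258 CPM in the knockout ones.

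Of the 9 genes, 7 passed the filter on low counts, and 2 of these had an adjusted p under 0.05. IKZF1 fell to 0.490 of its wild-type level and IKZF2 rose 5.23-fold. RUNX1, CBFB, IKZF3, IKZF4 and IKZF5 did not pass the threshold, while RUNX2 and RUNX3 had too few counts for the main test. Among all 13696 tested genes the share called was 33.7%, with 18.3% called higher in the knockout and 15.4% called lower. The members' 2 of 7 is near that overall share. The libraries of both genotypes did not overlap for 3 of the 7 (IKZF1, IKZF2 and IKZF5), against 52.3% of all genes tested.

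**Figure D1:**
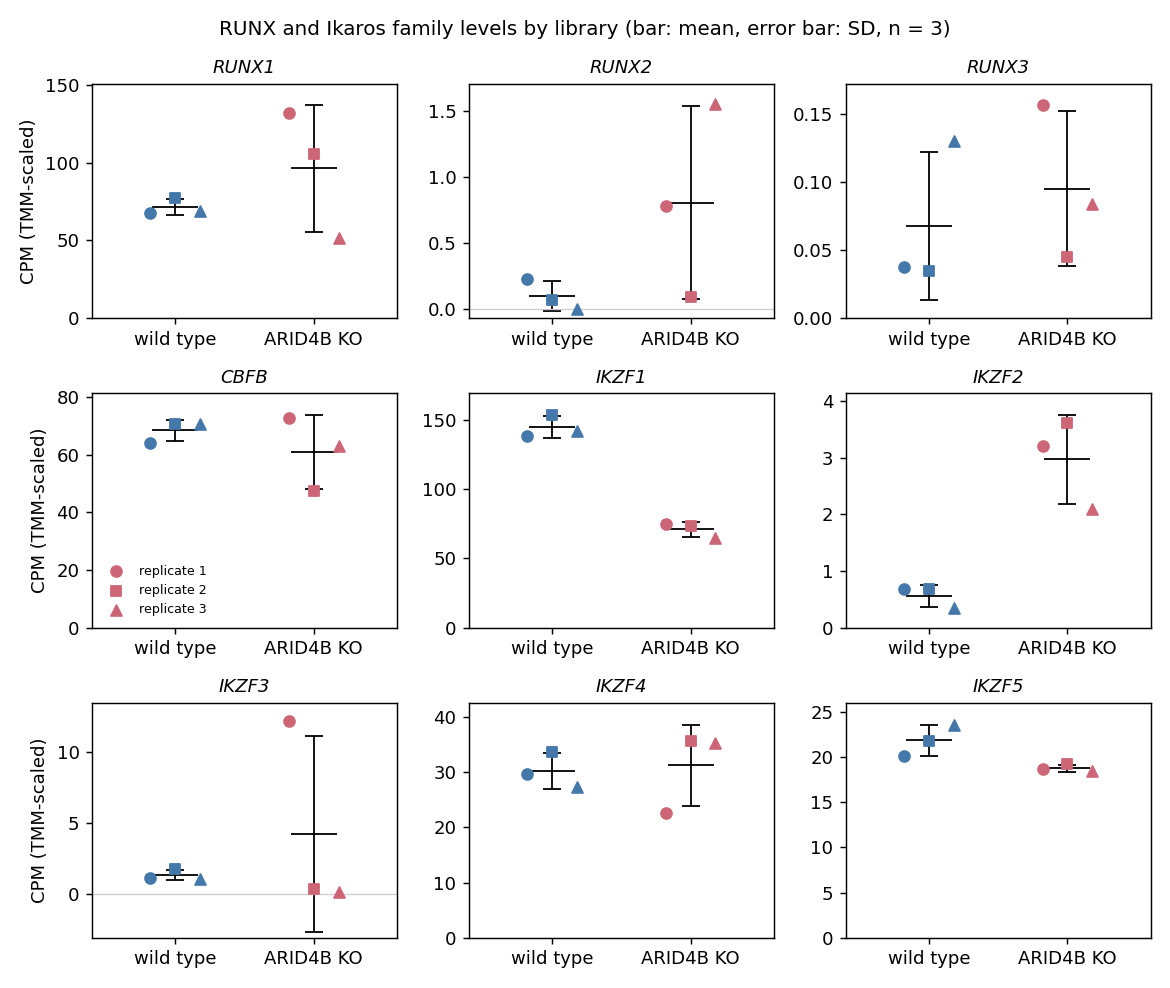
Level of each gene in CPM after TMM scaling (y axis, its own range in each panel) in the 3 wild-type and 3 ARID4B knockout libraries; symbols mark replicate numbers, the wide bar the mean and the error bar the SD. IKZF1, IKZF2 and IKZF5 do not overlap between the genotypes, as for 52.3% of all genes tested, whereas RUNX1 and IKZF3 scatter widely among the knockout libraries.

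IKZF1 encodes Ikaros, the founding member of its family and a regulator of lymphocyte development. Its level was 139, 154 and 142 CPM in the wild-type libraries and 74.9, 73.4 and 64.4 CPM in the knockout libraries. All knockout libraries lay below all wild-type libraries, and they lay close together. The means were 145 ± 7.94 CPM (SD, n = 3) and 70.9 ± 5.65 CPM (SD, n = 3). Its fitted log2 difference was -1.03 (SE 0.08, adjusted p = 0.000923 by the edgeR quasi-likelihood test), and the call held in each of the 15 other calculations, where values ran from -1.08 to -0.88. Of the 2107 genes called lower, 134 fell at least as far. The gene occupies chromosome 7, 50344378 to 50472798, on hg19. The 100 tested genes around it, 50 on each side, had log2 medians of -0.10, -0.10 and -0.24 in the knockout libraries, against -0.95, -0.98 and -1.16 for IKZF1. No other row of the table overlapped it.

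IKZF2 encodes Helios, known from regulatory T cells and early blood progenitors. It had 18, 20 and 8 counts in the wild-type libraries, or 0.676, 0.683 and 0.346 CPM, and 82, 81 and 50 counts in the knockout libraries, or 3.20, 3.61 and 2.10 CPM. The groups did not overlap, and both stood at low levels. Knockout over wild type, the log2 fold change was 2.37 (SE 0.38, adjusted p = 0.00526 by the edgeR quasi-likelihood test), and it ran from 2.10 to 2.55 over the 15 other calculations, with adjusted p-values up to 0.0325. From the summed counts, 46 against 213, the ratio was 5.09 with an exact 95% interval of 3.69 to 7.17, which covers counting error only. Wild-type replicate 3 was below the level that the filter asks for, so IKZF2 was tested through its knockout libraries. Of the 2512 genes called higher, 721 rose at least as far. The gene lies on chromosome 2, 213864411 to 214016333 (hg19), and its neighbours had medians between 0.04 and 0.09 (log2) in the knockout libraries.

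Promoter windows from RefSeq (GRCh38.p14, 250 bases before and 50 after a start) were at hand for 7 of the 9 genes, 15 windows in all, with none for CBFB and IKZF3. The RUNX core TGTGGT, searched on both strands, occurred in 5 of the 15 windows, against 13.1% of 35116 promoters of the same length. The Ikaros core TGGGAA occurred in 2 windows (24.03% of all promoters) and the GATA motif AGATAA in 1, an IKZF1 window (10.3% of all promoters). The motifs were chosen after these sequences had been seen. The bases before the start are printed for the windows of the called genes that hold a RUNX core, since these join both families. They read 5′ to 3′ in the direction of transcription, with the core or its reverse complement in capitals. The IKZF1 stretch is chr7:50308450-50308699 on the plus strand and the IKZF2 stretch chr2:213152457-213152706 on the minus strand.
IKZF1: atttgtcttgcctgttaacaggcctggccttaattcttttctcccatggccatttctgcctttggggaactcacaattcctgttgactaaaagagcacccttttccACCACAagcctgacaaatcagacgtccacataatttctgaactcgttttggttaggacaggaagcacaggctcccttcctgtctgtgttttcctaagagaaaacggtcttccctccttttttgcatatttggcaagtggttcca
IKZF2: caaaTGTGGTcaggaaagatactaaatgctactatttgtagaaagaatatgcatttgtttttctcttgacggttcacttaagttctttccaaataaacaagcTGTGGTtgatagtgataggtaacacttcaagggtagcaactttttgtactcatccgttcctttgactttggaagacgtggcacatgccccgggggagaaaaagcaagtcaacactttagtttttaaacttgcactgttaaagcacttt
The IKZF1 stretch held 1 match and the IKZF2 stretch 2. A match is a run of letters and says nothing of binding in these cells.

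The remaining Ikaros genes did not pass the threshold. IKZF3 encodes Aiolos, a B cell and plasma cell factor. It stood at 1.13, 1.71 and 1.04 CPM in wild type and at 12.2, 0.357 and 0.0839 CPM in knockout replicates 1 to 3. Knockout replicate 1 was above every wild-type library and the other knockout libraries were below them all, with 312, 8.42 and 2 estimated counts. The log2 fold change was 1.70 (SE 1.44, adjusted p = 0.396 by the edgeR quasi-likelihood test). Without knockout replicate 1 it was -2.55 (adjusted p = 0.0194, where 39.3% of all genes tested were called), so 1 library set its direction.

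IKZF4 encodes Eos, a partner of FOXP3 in regulatory T cells. Its level was 29.6, 33.7 and 27.4 CPM in the wild-type libraries and 22.7, 35.7 and 35.3 CPM in the knockout ones. The lowest and the highest library were both knockout libraries, so the groups overlapped. Its fitted log2 difference was 0.05 (SE 0.19, adjusted p = 0.876 by the edgeR quasi-likelihood test). IKZF5 encodes Pegasus, in which human variants cause a platelet deficit. It stood at 20.2, 21.8 and 23.6 CPM in the wild-type libraries and 18.7, 19.2 and 18.5 CPM in the knockout ones, with no overlap. Knockout over wild type, the log2 fold change was -0.22 (SE 0.10, adjusted p = 0.136 by the edgeR quasi-likelihood test), beside neighbour medians of -0.11, -0.14 and -0.13.

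RUNX1, the only RUNX gene past the expression filter, was the most scattered of the abundant members. Its level was 67.9, 77.5 and 68.9 CPM in wild type and 132, 106 and 51.8 CPM in knockout replicates 1 to 3. Replicates 1 and 2 of the knockout lay above all wild-type libraries and replicate 3 lay below them. The log2 fold change was 0.43 (SE 0.31, adjusted p = 0.313 by the edgeR quasi-likelihood test). Without knockout replicate 3 it was 0.72 (adjusted p = 0.00687, where 38.4% of all genes tested were called). The row spans 36160098 to 37357047 on chromosome 21 (hg19). The rows inside it reached at most 1.56 CPM in any library.

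The spread of RUNX1 was wide even beside other genes. Among 8049 genes with a mean of at least 15 CPM, a floor set after the members' levels had been seen, the median coefficient of variation among knockout libraries was 11.2%. That of RUNX1 was 42.3%, higher than in 96.5% of these genes. CBFB at 21.1% and IKZF4 at 23.8% were also above the median. IKZF1 at 7.96% was below it, and IKZF5 at 2.07% was lower than all but 3.12% of the genes. IKZF5 had 478, 431 and 440 knockout counts, so counting error enters its value. A spread from 3 libraries is rough, and the spreads of these genes were not tested. In wild type RUNX1 varied by 7.36%, higher than in 85.3% of the genes, whose median was 4.02%.

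CBFB, the shared partner of the RUNX proteins, stood at 64.0, 70.6 and 70.6 CPM in the wild-type libraries and 72.8, 47.3 and 62.9 CPM in the knockout ones. The groups overlapped, with knockout replicate 1 highest and replicate 2 lowest. Its fitted log2 difference was -0.16 (SE 0.15, adjusted p = 0.443 by the edgeR quasi-likelihood test). The counts of RUNX1 per count of CBFB, not corrected for length, were 1.06, 1.097 and 0.976 in wild type and 1.81, 2.23 and 0.823 in the knockout. Replicates 1 and 2 of the knockout lay above all wild-type ratios and replicate 3 lay below them. An exact two-sided permutation test of the ratios gave p = 0.4. The smallest p that 3 against 3 libraries allow is 0.1, which is above the threshold used for the genes. No ratios could have passed it, so the test cannot decide whether the ratio differed.

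RUNX2 and RUNX3 were at the edge of detection. RUNX2, the bone factor, had 6, 2 and 0 counts in the wild-type libraries and 20, 2 and 37 in those of the knockout. Replicate 2 of the knockout was within the wild-type range and the other 2 were above it. The ratio of summed counts, 8 against 59, was 8.11 with an exact 95% interval of 3.86 to 19.7 for counting error. RUNX2 was tested in 6 of the other calculations, where its adjusted p was from 0.0306 to 0.245. It was under 0.05 in 1 of these, without knockout replicate 2 (log2 fold change 3.47, where 34.7% of all genes tested were called). SUPT3H overlaps RUNX2, and stood at 13.6 CPM in the wild-type libraries and 9.67 CPM in the knockout ones. No source used here says whether strand entered the counting, and the reads of both genes may not be fully told apart.

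RUNX3 had 1, 1 and 3 wild-type counts and 4, 1 and 2 knockout counts. The groups overlapped, and the ratio of 1.54 had an exact 95% interval of 0.421 to 6.15. A difference was not detectable at this depth. RUNX2 and RUNX3 share an 18-base run with a pair of RUNX cores near a start of each, printed because it is held by 2 promoters of the table, those of these genes. It lies at chr6:45328344-45328361, plus strand, 15 to 32 bases after the RUNX2 start, and at chr1:24965126-24965143, minus strand, before the RUNX3 start. Capitals mark the reverse complement of the core. The run was picked after the sequences had been seen.
RUNX2 and RUNX3: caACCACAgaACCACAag

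**Figure D2:**
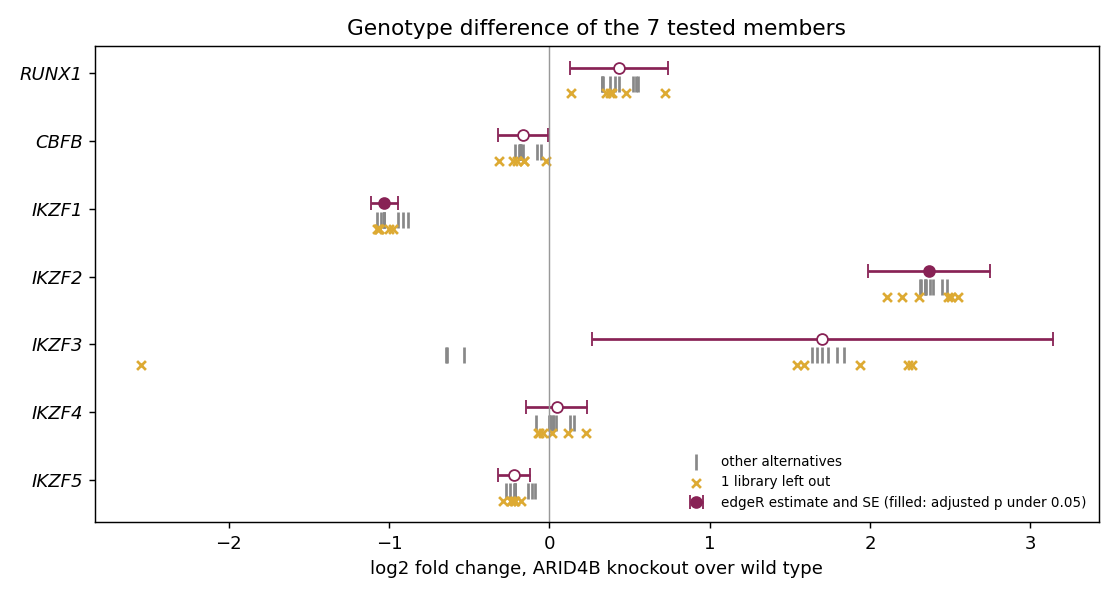
Log2 fold change of knockout over wild type (x axis) for the 7 tested genes; circles with bars give the edgeR estimate and its SE, filled where the adjusted p was under 0.05, ticks and crosses the other calculations. IKZF1 (-1.03) and IKZF2 (2.37) keep their side of 0 throughout, while IKZF3 moves from 1.70 to -2.55 without knockout replicate 1.

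Levels per kilobase of the longest annotated transcript allow the genes to be set beside each other. In wild type IKZF1 (22.9 ± 1.26 CPM per kb, SD, n = 3) and CBFB (21.8 ± 1.21) led and overlapped. IKZF4 (11.9 ± 1.27), RUNX1 (9.82 ± 0.723) and IKZF5 (4.82 ± 0.378) followed, each separate from the next. IKZF2 (0.146) and IKZF3 (0.134) overlapped far below, and RUNX2 and RUNX3 came last. Transcript length sets part of this order. At the median length of the matched transcripts, a calculation chosen after seeing the data, IKZF1 (24.4 ± 1.34) lay above CBFB (22.4 ± 1.24) without overlap, and RUNX1 (12.0 ± 0.881) overlapped IKZF4. IKZF3 (0.832 ± 0.235) then lay above IKZF2 (0.193 ± 0.0654) without overlap.

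In the knockout, CBFB (19.5 ± 4.10 CPM per kb), RUNX1 (13.3 ± 5.61), IKZF4 (12.3 ± 2.92) and IKZF1 (11.2 ± 0.896) each overlapped the next in that order. IKZF1 thus went from rank 1 to rank 4. IKZF5 (4.14 ± 0.0856) lay below all of these, and IKZF2 (0.764 ± 0.201) came next, overlapping IKZF3. At the median length the leading 4 kept this order, and IKZF3, which spread from 0.0541 to 7.86 CPM per kb, overlapped IKZF5.

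IKZF1 made up 57.3%, 56.9% and 58.1% of the summed Ikaros family level per kb in the wild-type libraries and 44.0%, 37.7% and 35.6% in the knockout libraries. The groups did not overlap, and the difference had an exact two-sided permutation p of 0.1, the smallest that 3 against 3 libraries allow. IKZF1 is the largest term of the sum in wild type. Its share and the summed level therefore repeat in part the fall of IKZF1 given above. IKZF4 took 27.9% to 31.0% in wild type and 33.1%, 45.5% and 48.4% in the knockout. In knockout replicates 2 and 3 this was more than IKZF1. The level of IKZF4 itself was not called different (log2 fold change 0.05, edgeR adjusted p = 0.876), and a share depends on the other genes in the sum. At the median transcript length IKZF4 took 28.8%, 29.3% and 26.5% in wild type and 25.8%, 43.7% and 47.0% in the knockout, so its groups then overlapped. The IKZF3 share of knockout replicate 1 was 4.67% at the longest and 22.7% at the median length. The IKZF1 shares at the median length were 57.2% to 58.8% in wild type and 36.5% to 38.5% in the knockout. The share of IKZF2 was at most 0.453% in wild type and at least 1.88% in the knockout. The summed level of the family was 39.9 ± 2.47 CPM per kb (SD, n = 3) in wild type and 28.9 ± 1.95 CPM per kb (n = 3) in the knockout, again without overlap (exact permutation p = 0.1), as at the median length. RUNX1 was 96.0% to 99.8% of the summed RUNX level per kb in all 6 libraries.

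**Figure D3:**
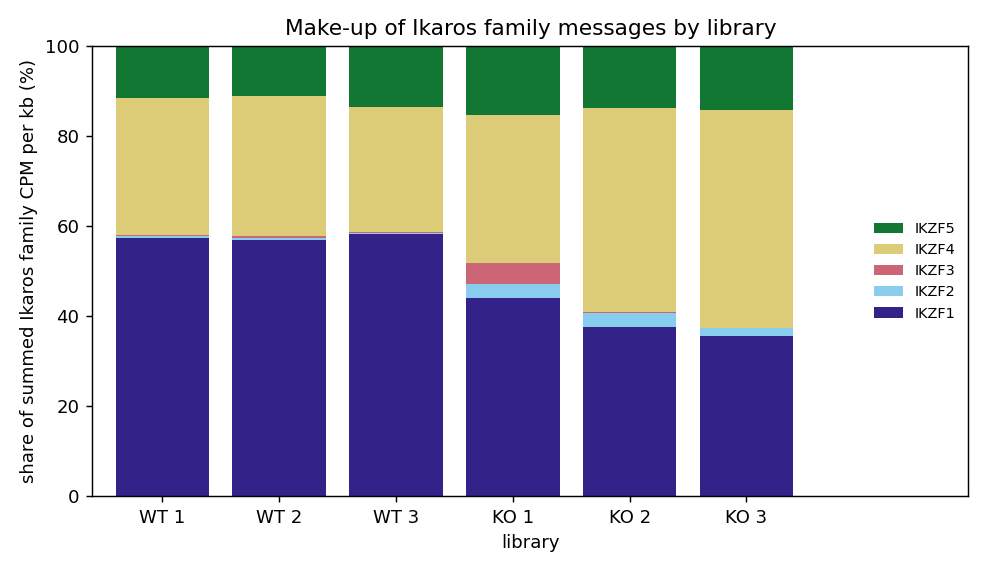
Share of each gene in the summed Ikaros family CPM per kb of the longest transcript (y axis, %) in each of the 6 libraries (WT wild type, KO ARID4B knockout). IKZF1 holds 56.9% or more in wild type and 44.0% or less in the knockout, and the IKZF3 band in knockout replicate 1 (4.67%) would be 22.7% at the median transcript length.

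The chromosomal surroundings were compared because the neighbours of ARID4B itself stood lower. For RUNX1 the neighbour medians were -0.15, -0.06 and -0.12 (log2) in the knockout libraries, against 0.88, 0.57 and -0.46 for the gene. For IKZF3 they were -0.03, -0.15 and -0.11, against 3.19, -1.62 and -3.04. The neighbours of IKZF4 were slightly above 0, at 0.19, 0.06 and 0.17. With the neighbour medians taken out, IKZF1 and IKZF2 stayed past the threshold.

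**Figure D4:**
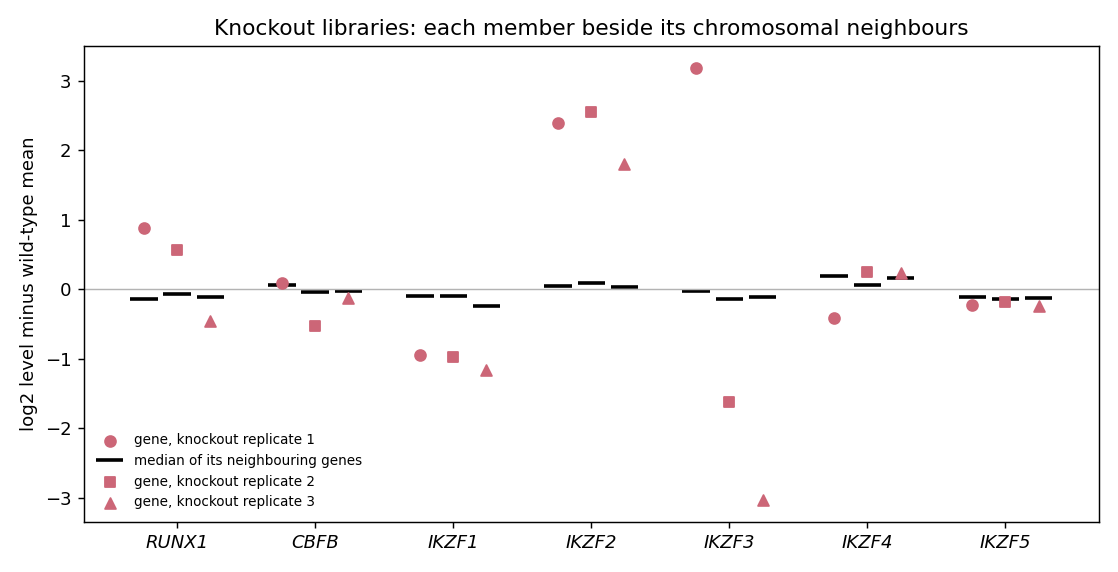
Log2 level minus the wild-type mean (y axis) of the 7 tested genes in each knockout library (coloured symbols), with the median of up to 100 neighbouring tested genes in the same library (black bars). Neighbour medians lie between -0.24 and 0.19, and IKZF1 and IKZF2 lie away from them in all 3 libraries.

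The genes whose pattern over the 6 libraries was most like that of IKZF1 were ZBTB12, TFAP4 and MIR17HG, by the root mean square difference of log2 levels (0.103, 0.108 and 0.117) among 10180 genes. For IKZF2 they were NRGN, SNPH and PNRC1 (0.268, 0.271 and 0.280). TFAP4, a helix-loop-helix factor, went from 25.8, 27.5 and 26.4 CPM to 12.4, 13.2 and 13.7 CPM. SNPH, a mitochondrial anchoring protein of neurons, went from 15.2, 13.8 and 12.0 CPM to 62.2, 71.4 and 36.5 CPM.

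The partners through which these factors act were read from lists chosen with results of these data known. Their counts stand beside 18.3% higher and 15.4% lower among all genes tested. With library totals these shares were 22.8% and 9.37%. Without wild-type replicate 1 they were 8.65% and 7.7%, without replicate 2 8.05% and 6.55%, and without replicate 3 8.36% and 6.73%. Without knockout replicate 1, 2 or 3 they were 20.9%, 18.8% and 20.6% higher and 18.3%, 15.9% and 17.8% lower. Of 20 Ikaros chromatin partners, mostly subunits of the NuRD deacetylase complex, all were tested, 8 fell and 1 rose, with a median log2 fold change of -0.23 beside 0.02 for all genes. MBD3, the NuRD subunit related to methyl-DNA binders, fell to 77.2 ± 3.70 CPM from 114 ± 3.22 CPM (log2 fold change -0.56, SE 0.07, edgeR adjusted p = 0.00239). HDAC1, a catalytic deacetylase, fell to 214 ± 28.4 CPM from 308 ± 1.86 CPM (-0.52, adjusted p = 0.00853). RBBP4, a histone chaperone, fell to 325 ± 32.3 CPM from 447 ± 15.1 CPM (-0.46, adjusted p = 0.00787), a call lost with the neighbouring gene offset. MTA3 rose from 26.3 ± 0.622 to 34.7 ± 3.06 CPM (0.40, adjusted p = 0.0178), and lost its call without wild-type replicate 1, 2 or 3. These shifts are small, and with library totals in place of TMM, which moves the median of all genes to 0.13, 5 partners fell and 1 rose. Without wild-type replicate 1, 2 or 3, 6, 5 and 5 fell and 0 rose.

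Cereblon is the ligase receptor through which lenalidomide and related drugs destroy Ikaros and Aiolos. Of 14 ligase subunits and drug substrates, 7 fell and 0 rose, with a median of -0.22. CUL4A, the cullin scaffold, fell to 93.7 ± 2.50 CPM from 145 ± 5.67 CPM (log2 fold change -0.63, SE 0.06, edgeR adjusted p = 0.00148). UBE2G1, a ubiquitin-conjugating enzyme, had -0.49 (adjusted p = 0.0284) and MEIS2, a cereblon substrate, -0.41 (adjusted p = 0.0133). With library totals 3 fell, and without wild-type replicate 1, 2 or 3 it was 3, 2 and 2. UBE2G1 lost its call in all of these settings and without knockout replicate 2, and MEIS2 without wild-type replicate 2 or 3.

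Of 22 RUNX cofactors, 19 were tested, 2 rose and 4 fell, with a median of -0.11. RUNX1T1, the corepressor fused to RUNX1 in some acute leukemias, had 3 counts in all wild-type libraries together and 129 in the knockout, a ratio of 47.3 with an exact 95% interval of 15.8 to 232. Its wild-type libraries were below the level that the filter asks for. RUNX1T1 was thus tested through its knockout libraries and could only be called higher. HIPK2, a kinase that acts on RUNX1, was at 81.0, 100.1 and 86.3 CPM in the wild-type libraries and 197, 210 and 117 CPM in the knockout ones (log2 fold change 0.97, edgeR adjusted p = 0.0160). CDK6, a cell cycle kinase that binds RUNX1, fell to 135 ± 30.3 CPM from 225 ± 11.5 CPM (-0.74, adjusted p = 0.0135). The arginine methyltransferases PRMT6 (-0.69, adjusted p = 0.0198) and PRMT1 (-0.65, adjusted p = 0.0132) fell as well. Without wild-type replicate 1, 2 or 3 the counts were 1 higher and 1 lower each time. HIPK2 and PRMT6 lost their calls in all 3 of these, PRMT1 without replicate 1 or 3, and CDK6 without replicate 2.

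**Figure D5:**
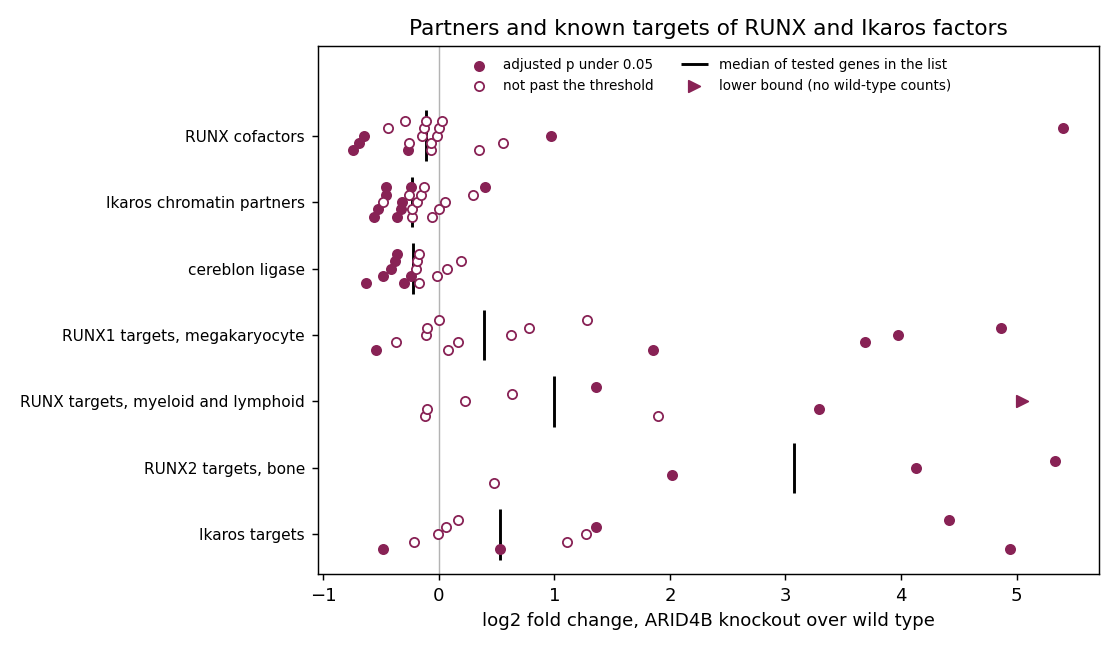
Log2 fold change of knockout over wild type (x axis) for the tested genes of 7 lists of partners and known targets (y axis); filled points had an adjusted p under 0.05, black bars are list medians, the triangle is a lower bound for CD244. Partner lists sit slightly below 0 (medians -0.23 to -0.11) and target lists spread to the right. A gene near silent in wild type could be tested only through its knockout libraries, and so could only lie to the right.

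Genes known as targets of these factors were read the same way, although a target silent in wild type could enter the test only by being present in the knockout. Of 20 megakaryocyte targets of RUNX1, 14 were tested, 4 rose and 1 fell (median 0.40). ITGA2B, the platelet integrin subunit, was at 3.30, 2.56 and 3.16 CPM in wild type and 71.7, 50.8 and 18.8 CPM in knockout replicates 1 to 3 (log2 fold change 3.97, SE 0.50, edgeR adjusted p = 0.00272). Its partner ITGB3 was at 0.563, 0.820 and 0.649 CPM against 20.3, 26.7 and 13.1 CPM (4.87, SE 0.34, adjusted p = 0.000536). RAB27B, a small GTPase of platelet granules, was at 2.52, 2.26 and 3.16 CPM against 48.8, 36.4 and 17.0 CPM (3.69, SE 0.41, adjusted p = 0.00204). The genotypes did not overlap for any of these 3 genes, as for 52.3% of all genes tested. The 3 were named because they were called, so this adds nothing to their calls. MYH10, a nonmuscle myosin that RUNX1 represses, fell to 190 ± 43.9 CPM from 278 ± 21.1 CPM (-0.55, adjusted p = 0.0377). The counts were 3 higher and 0 lower without any 1 wild-type library or without knockout replicate 3, and 6 higher and 0 lower without knockout replicate 1 or with library totals. Without knockout replicate 2 they were 4 higher and 3 lower. MYH10 also lost its call with upper quartile factors and with the neighbouring gene offset.

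Of 20 myeloid and lymphoid targets of RUNX factors, 8 were tested, 3 rose and 0 fell (median 0.996). CDKN1A, the cell cycle inhibitor p21, rose from 5.51 ± 0.939 to 54.0 ± 7.25 CPM (log2 fold change 3.29, SE 0.17, edgeR adjusted p = 0.000237). CD244, a receptor of natural killer cells, had no counts in wild type and 90 in the knockout libraries, at least 33.0-fold higher against 3 counts over the wild-type group. RAG1, the recombinase gene, rose from 3.26 ± 0.245 to 8.37 ± 1.01 CPM (1.36, adjusted p = 0.00330). RAG1 is also on the list of Ikaros targets. Of those 22 genes 11 were tested, 4 rose and 1 fell (median 0.53). CD9, a tetraspanin, rose from 0.262 ± 0.103 to 5.74 ± 4.25 CPM (4.42, adjusted p = 0.00506). CTNND1, a catenin, rose to 164 ± 30.5 from 113 ± 6.003 CPM (0.53, adjusted p = 0.0228), and SYK, a kinase of the B cell receptor, fell to 32.8 ± 6.98 CPM from 45.9 ± 3.39 CPM (-0.49, adjusted p = 0.0490). Without wild-type replicate 1, 2 or 3, 2, 2 and 3 Ikaros targets rose and 0 fell. CTNND1 and SYK were not called in any of these 3 settings. SYK also lost its call without knockout replicate 1 or 3, with library totals and with upper quartile factors.

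Of 15 bone targets of RUNX2, 4 were tested and 3 rose. COL1A1 was at 0.788, 0.171 and 0.606 CPM in the wild-type libraries and 26.4, 28.9 and 7.22 CPM in the knockout ones (log2 fold change 5.33, edgeR adjusted p = 0.00329). COL1A2 was at 7.92 to 8.99 CPM against 14.7, 201 and 230 CPM (4.13, adjusted p = 0.0155). FN1 was at 15.2, 18.4 and 16.3 CPM against 68.6, 40.7 and 93.5 CPM (2.02, adjusted p = 0.00374). The knockout library with the lowest level was replicate 3 for COL1A1, replicate 1 for COL1A2 and replicate 2 for FN1. COL1A2 lost its call without wild-type replicate 1, 2 or 3 and with limma-voom. BGLAP, IBSP, SP7 and DMP1, which define osteoblasts, were under 1 CPM in every library.

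Markers of other blood and stromal cells were read beside these lists. T cell markers summed to 3.90 to 4.02 CPM in wild type and 4.06 to 14.8 CPM in the knockout, with 8 of 9 under 1 CPM in every library and CD28, TRAT1 and THEMIS at 0. B cell markers summed to 2.90 to 3.98 and 3.99 to 8.71 CPM, with 7 of 8 under 1 CPM and MS4A1 at 0. Natural killer markers summed to 1.37 to 2.29 and 6.21 to 18.3 CPM, of which PRF1 rose (2.72, edgeR adjusted p = 0.00715) while KLRD1, GNLY and KLRC1 were at 0. Monocyte markers summed to 20.5 to 21.5 and 17.7 to 52.4 CPM, mostly LYZ, with CD163 and MS4A7 at 0. Osteoblast markers summed to 0.239 to 0.901 and 7.47 to 29.3 CPM, in the knockout almost all COL1A1. Endothelial markers summed to 1.99 to 2.56 and 9.36 to 33.8 CPM, of which ESAM rose (5.32, edgeR adjusted p = 0.00380). Wild-type replicates 1 and 3 of ESAM (0.188 and 0.346 CPM) were below the level that the filter asks for. ESAM was thus tested through its knockout libraries and could only be called higher. PECAM1 was not called (0.31, edgeR adjusted p = 0.389), and 4 of 7 endothelial markers were under 1 CPM in every library. Fibroblast markers summed to 8.70 to 9.46 and 41.5 to 239 CPM, nearly all from COL1A1 and COL1A2, with COL3A1 at most at 2.01 CPM. Their part in the results was not tested. In bulk libraries, fewer cells of a type and less RNA per cell cannot be told apart.

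The authors' deposited table of their own comparison listed 3153 genes, among them 3 of the 9. In the authors' deposited table IKZF1 had a log2 fold change of -0.77 (adjusted p 0.00697, edgeR having given -1.03 here). The authors' deposited table gave IKZF2 2.56 (adjusted p 0.0430) and RUNX2 2.47 (unadjusted p 0.0418, adjusted p 0.198). No source used here names the test behind these values.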

How the data were processed

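Messenger RNA of 3 wild-type and 3 ARID4B knockout K562 samples was sequenced as paired ends with a stranded kit, per the labels' protocols. The authors deposited RSEM expected counts per gene, not normalized. The submitters' processing notes name STAR 2.4, RSEM 1.2.14, hg19 and GRCh37. The authors also deposited a table with log2 fold changes and p-values, copied here for named genes. A spreadsheet had turned 27 symbols into dates, and these were restored from their rows.

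Rounded expected counts went into quasi-likelihood F tests of edgeR 4.0.16 under R 4.3.3, with TMM scaling and filterByExpr (minimum count 10). P-values were adjusted over all 13696 genes (Benjamini-Hochberg, threshold 0.05). The code was tested on simulated data. Alternatives used DESeq2 1.42.0, limma-voom 3.58.1, other scalings and filters, each library left out, a replicate block and an offset for 50 tested genes on each side. CPM per kb used the longest GENCODE transcript matched by RefSeq accession, or the median length as an alternative. Intervals are exact, cover counting error only, and use a 95% level. The bound for CD244 sets its summed knockout counts over 3 wild-type counts, scaled by library size. It takes the knockout counts as they are and carries no confidence level. Coordinates of genes are hg19, 1-based.

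The 9 genes and all lists were chosen with earlier results of these data known. Of each list, up to 3 genes called each way whose higher group reached 1 CPM are named, by absolute log2 fold change. Genes alike in pattern needed a mean of 5 CPM. A few further genes are named as markers.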

Additional observations from a re-analysis of the deposited data

How the results depend on the processing

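Of 178 recalculated values for the 9 genes, 159 kept their direction and their side of the threshold or stayed within the spread of replicates, 9 reversed, 4 passed the threshold or grew as counts, and 6 moved beyond that spread. IKZF1 and IKZF2 were called under all 15 alternatives. The log2 fold change of IKZF3 reversed with limma-voom (-0.64, adjusted p = 0.766), with limma-voom and a spread for each genotype (-0.64, adjusted p = 0.719), and with the replicate block (-0.53, adjusted p = 0.825). With 1 library left out it ran from -2.55 to 2.26. The log2 fold change of IKZF4, near 0, reversed without the expression filter (-0.00084) and with the neighbouring gene offset (-0.083). With 1 library left out it ran from -0.068 to 0.23, and that of RUNX1 from 0.14 to 0.72. The members called higher then numbered 1 to 2, and those called lower 1 to 2, the second being RUNX2 without knockout replicate 2, RUNX1 without knockout replicate 3 and IKZF3 without knockout replicate 1. In raw counts IKZF1 was 2.02 times RUNX1 in wild type, and the median transcript length moved 5 levels per kb, of RUNX1, IKZF1 and IKZF3 in wild type and of IKZF2 and IKZF3 in the knockout. The causes were not tested. The deviations of same-numbered libraries of both genotypes had correlations of 0.012, 0.018 and 0.010, so no shared deviation was seen. Such correlations cannot show whether the libraries were prepared in pairs, and no label says so. The replicate block changed no call of a member.

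Depth limits RUNX2 and RUNX3, with at most 37 counts in a library, and IKZF2 in wild type. The test fits a single spread for both genotypes, although the knockout libraries varied more.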
